A study of Medicago truncatula with 6 samples.

Results

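Flavonoids and isoflavonoids are phenolic compounds that plants build from phenylalanine. Chalcone synthase makes the first flavonoid skeleton, and the pathway then divides. One side leads to flavones, flavonols, anthocyanins and tannins, and the other, mostly found in legumes, leads through isoflavone synthase to isoflavones and to pterocarpan defence compounds such as medicarpin. Legume roots release several of these compounds as signals to rhizobia and as antimicrobial agents.

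The data described here are the levels of 10 genes of these branches in roots of *M. truncatula* A17, out of 50443 genes in the deposited table. They are the chalcone synthases Medtr7g016720, Medtr7g016800 and Medtr1g097935, the flavone synthase Medtr4g088160, the flavonol synthase Medtr5g059140, the dihydroflavonol reductase (DFR) Medtr7g074710, the isoflavone synthase Medtr4g088195, the 2-hydroxyisoflavanone dehydratase (HID) Medtr8g040860, and the isoflavone reductases Medtr5g020800 and Medtr5g020760. They were chosen by gene ID with the comparison of roots with and without w5 already known. Their differences between the groups are therefore given as a description, without a test, and no support is drawn from them.

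Seedlings grew on a sugar-free agar medium, either alone (control) or with a plug of the free-living fungus *Gongronella* sp. w5 on a glucose medium in the other part of the plate. The study describes the control plants as grown alone on the sugar-free medium. It does not say whether their plates also held the glucose medium, so an effect of the medium and of the fungus cannot be told apart. Roots touched by w5 mycelia were taken at 16 days post-inoculation, and the labels name no time for the untreated roots. Total RNA was sequenced from 3 replicates per group, which the study calls biological, and the number of plants pooled in each is not stated. The libraries held between 6547753 and 7539956 counts, and the fit across all genes tested 16905 of them, all 10 members included. Because roots were sequenced without separating their cell types, more RNA per cell and more cells of a type cannot be told apart. Which part of the root was sampled is not stated, and control roots could not be chosen by contact with w5. The root label itself could not be checked, since no gene specific to roots is named in the annotation used here.

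The names of the members were compared with the enzyme numbers in the study's supplementary annotation, which lists 9 of the 10. For the chalcone synthases and the flavonol synthase, name and enzyme number describe the same reaction. Medtr4g088160, described there as a flavone synthase of the cytochrome P450 family, carries the enzyme number of 2-hydroxyisoflavanone synthase, the isoflavone synthase reaction. Medtr7g074710, described as similar to dihydroflavonol reductase, carries the number of vestitone reductase, a late step of medicarpin synthesis. Medtr4g088195 is not annotated in the sources used here beyond its place in the list. Each is called by its listed name below, and branch values are also given with both genes placed by enzyme number.

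Levels are given as FPKM, the counts of a gene per kilobase of its length and per 1000000 counts of its library, so that genes can be compared. In control roots they spanned from 0.506 ± 0.619 FPKM (SD, n = 3) for the flavonol synthase to 197 ± 41.9 FPKM (SD, n = 3) for the DFR. The DFR stood above every other member in every library and held between 52.4% and 62.3% of the summed FPKM of the 10 genes. The ranges of the control libraries overlapped between all neighbours in the order of levels from the second place (Medtr1g097935) to the ninth (Medtr7g016800), so only the DFR at the top and the flavonol synthase at the bottom stood apart. With w5 the same genes held the first 4 places, the DFR, Medtr1g097935, Medtr4g088195 and Medtr4g088160, and the 2 isoflavone reductases exchanged places within their overlapping ranges. The chalcone synthase Medtr1g097935 then also stood apart from its neighbours, as did Medtr7g016800.

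**Figure D1:**
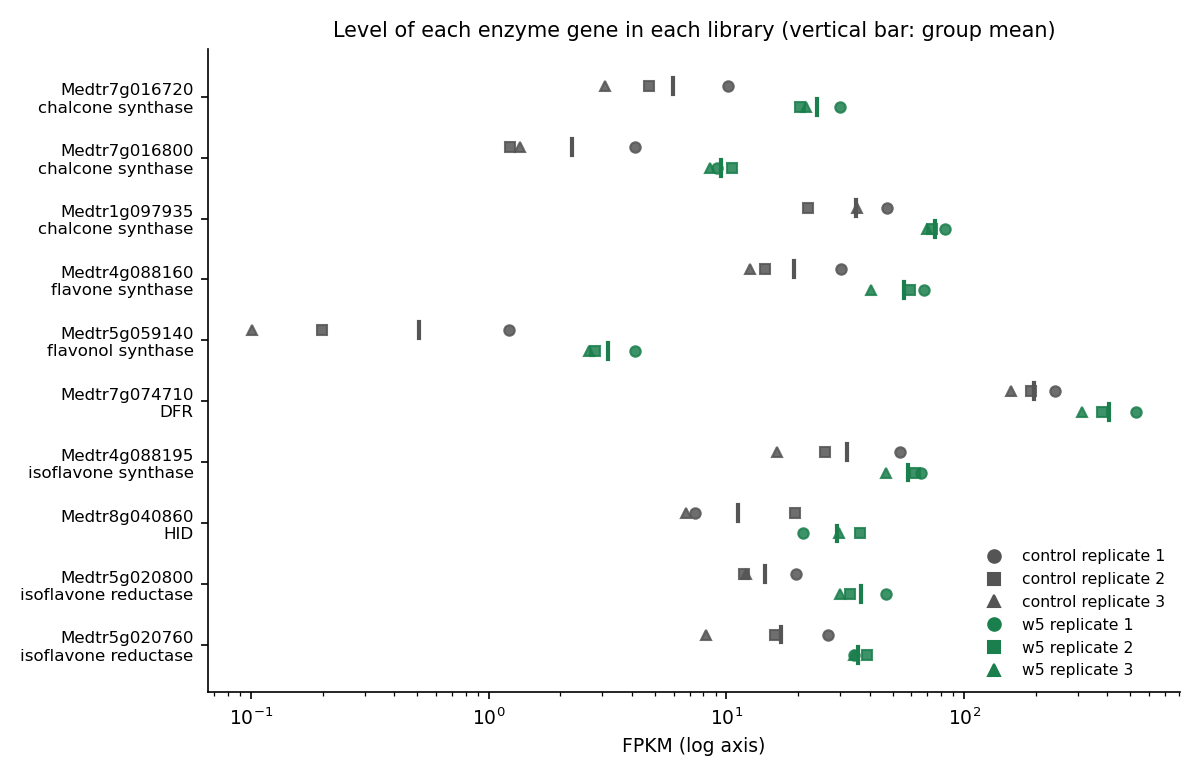
Level of each of the 10 enzyme genes in FPKM (log axis) in the 3 control and the 3 w5 libraries, one marker per library, with the group mean as a vertical bar. The w5 libraries lie above all control libraries for every gene except the isoflavone synthase Medtr4g088195, where control replicate 1 lies at 53.7 FPKM and w5 replicate 3 at 46.9 FPKM.

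The chalcone synthases condense p-coumaroyl-CoA with malonyl-CoA and so open the pathway. Medtr7g016720 had 10.1, 4.71 and 3.09 FPKM in control replicates 1, 2 and 3 and 30.1, 20.4 and 21.7 FPKM in w5 replicates 1, 2 and 3. The groups did not overlap, and the lowest w5 library was 2.02 times the highest control in CPM, the counts per 1000000 after TMM scaling of the libraries. The log2 fold change was 2.01 (standard error 0.40). Medtr7g016800 had 4.12, 1.22 and 1.35 FPKM in the controls and 9.17, 10.6 and 8.56 FPKM with w5. Here too the groups were separate and control replicate 1 stood far above the other 2 controls, and the log2 fold change was 2.08 (standard error 0.45). Without that library the log2 fold changes were 2.65 and 2.89.

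Medtr1g097935 was the most abundant of the 3 chalcone synthases in every library, with 47.5, 22.0 and 35.3 FPKM without w5 and 83.4, 73.2 and 69.6 FPKM with w5. Its log2 fold change of 1.12 (standard error 0.26) was smaller than that of the pair on chromosome 7. Within a library, the FPKM of Medtr7g016720 was 0.214, 0.214 and 0.0876 times that of Medtr1g097935 in the controls and 0.361, 0.279 and 0.311 times with w5, without overlap. The ratio of Medtr7g016720 to its neighbour Medtr7g016800 did overlap, between 2.30 and 3.84 in the controls and between 1.93 and 3.28 with w5. The supplementary annotation, which does not name its genome build, places Medtr7g016720 on chromosome 7 at 5288687 to 5290376 (minus strand), Medtr7g016800 at 5309596 to 5311403 (plus strand) and Medtr1g097935 on chromosome 1 at 44140688 to 44142315 (plus strand). The counts of close copies may share reads, and this was not tested.

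The flavone synthase Medtr4g088160 (chromosome 4, 34754100 to 34756270, minus strand) had 30.4, 14.6 and 12.6 FPKM in the controls and 67.6, 59.3 and 40.7 FPKM with w5. Every w5 library lay above every control, and the log2 fold change was 1.55 (standard error 0.34). The flavonol synthase Medtr5g059140 (chromosome 5, 24404215 to 24409901, plus strand), which oxidizes dihydroflavonols to flavonols, had the largest difference of the 10 and the fewest reads. It had 13, 2 and 1 counts in the controls and 38, 27 and 25 counts with w5. The 95% Poisson interval of the count, which covers counting error only, was 6.92 to 22.2 in control replicate 1, and the lowest w5 library had 16.2 to 36.9, so the intervals of these libraries overlapped. The log2 fold change was 2.61 (standard error 0.72) with all libraries and 4.31 without control replicate 1.

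The DFR Medtr7g074710 (chromosome 7, 27943372 to 27945942, plus strand) had 241, 191 and 158 FPKM without w5 and 527, 379 and 312 FPKM with w5. The groups did not overlap, but the lowest w5 library was only 1.33 times the highest control in CPM. Its log2 fold change of 1.06 (standard error 0.23) was the smallest of the members that passed a log2 fold change of 1, and 0.84 without w5 replicate 1. Just outside that value was the isoflavone synthase Medtr4g088195 with 0.87 (standard error 0.38).

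Isoflavone synthase moves the aryl ring of a flavanone and thus commits carbon to the isoflavonoid side. Medtr4g088195 had 53.7, 26.0 and 16.3 FPKM without w5 and 65.7, 62.0 and 46.9 FPKM with w5. It was the only member whose groups overlapped, since control replicate 1 exceeded w5 replicate 3. Its log2 fold change was 1.48 without control replicate 1 and 0.57 without control replicate 3.

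HID removes water from the product of isoflavone synthase to give the isoflavone. Medtr8g040860 (chromosome 8, 15233661 to 15234653, minus strand) had 7.35, 19.5 and 6.78 FPKM without w5 and 21.1, 36.3 and 29.7 FPKM with w5. Control replicate 2 was the high control, unlike in any other member, and w5 replicate 1 stood only 1.09 times above it in CPM. The log2 fold change was 1.39 (standard error 0.42), and 2.05 without control replicate 2.

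Isoflavone reductases act after the isoflavone has been hydroxylated, on the way to pterocarpans, although the annotation calls both members only similar to such an enzyme. Medtr5g020800 had 19.7, 11.9 and 12.1 FPKM without w5 and 46.9, 33.2 and 30.1 FPKM with w5. Its log2 fold change of 1.34 (standard error 0.26) stayed between 1.15 and 1.63 when each library was left out. Medtr5g020760 had 26.8, 15.9 and 8.23 FPKM without w5 and 34.2, 39.2 and 34.3 FPKM with w5. The groups did not overlap. The log2 fold change of 1.09 (standard error 0.36) became 0.77 without control replicate 3 and 1.60 without control replicate 1. On chromosome 5 they occupy 7965936 to 7967985 (Medtr5g020800) and 7953059 to 7955273 (Medtr5g020760), both plus strand, with 10662 bases between them. The level of Medtr5g020800 over that of Medtr5g020760 overlapped between the groups, from 0.734 to 1.47 without w5 and from 0.846 to 1.37 with w5.

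**Figure D2:**
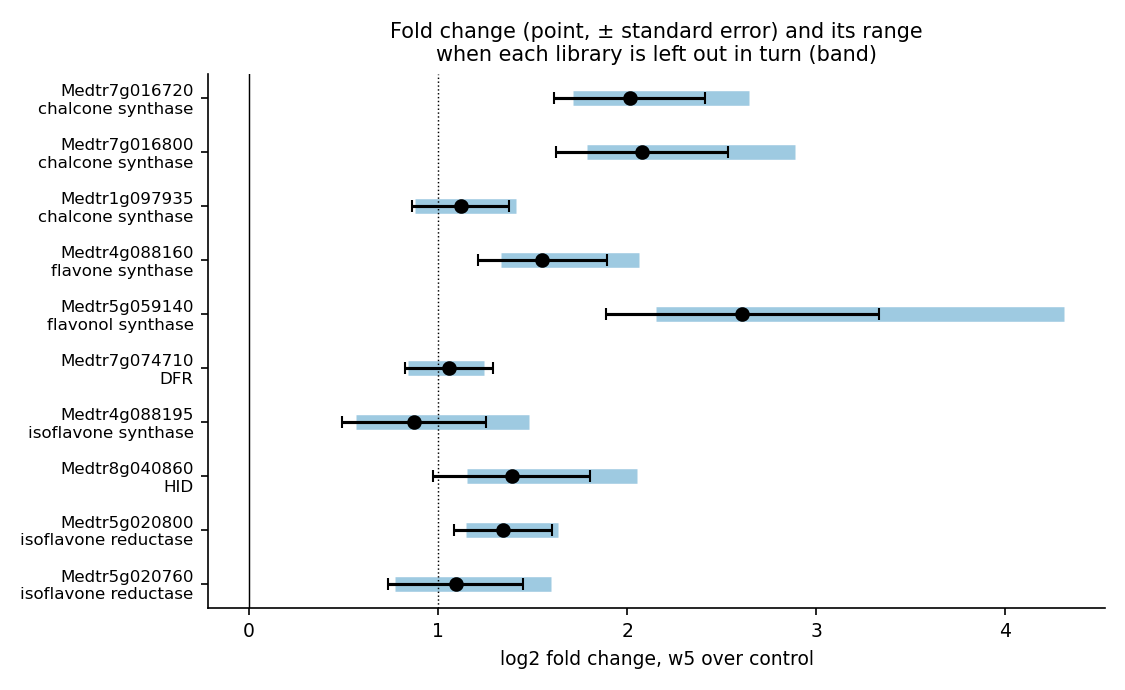
Log2 fold change of w5 over control for each enzyme gene (point) with its standard error (bar), and the lowest to highest value when each of the 6 libraries is left out in turn (band). The dotted line marks a log2 fold change of 1, and the bands of Medtr1g097935, Medtr7g074710, Medtr4g088195 and Medtr5g020760 reach below it, the last to 0.77.

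In the fit across all genes, 9 of the 10 members were higher at an unadjusted p under 0.05 and a log2 fold change over 1, as were 2.03% of all genes tested with edgeR's quasi-likelihood test. At an adjusted p under 0.05 from that test, 0 members and 0.0118% of the genes were higher, while with DESeq2 8 members and 1.27% of the genes were. In 9 members every w5 library lay above every control, as in 7.02% of all genes. The members were chosen on this contrast, and nothing is read from these shares. The median log2 fold change was 1.37 over the 10 members and -0.01 over all genes tested.

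By the ratio of the highest to the lowest library in CPM, the controls spread more widely than the w5 libraries in 9 members, and less widely in the DFR. By the SD in FPKM, the w5 libraries spread more widely in several members besides the DFR. The share of all genes with wider controls was not computed. The highest control was more than 2 times the lowest in 8 of the 10 members, against 23.7% of all genes tested, and the ratio ran from 1.51 in the DFR to 11.9 in the flavonol synthase. Among the w5 libraries that ratio ran from 1.15 to 1.72 in CPM. The share of all genes past 2 times among the w5 libraries was not computed, so nothing about these members is read from this. Control replicate 1 was the highest control in 9 members, against 34.3% of all genes tested, and control replicate 3 the lowest in 7, against 31.9%. With w5, replicate 1 was the highest in 7 members, against 36.8% of all genes.

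On the log2 CPM scale, control replicate 1 lay a median of 0.79 above the group mean over the members, while over all genes tested its median deviation was 0.01. Control replicate 3 lay a median of 0.50 below, a deviation of -0.50. HID stood apart in control replicates 1 and 2 and was the lowest member in w5 replicate 1 and the highest in w5 replicate 2. It deviated by -0.42 in control replicate 1, 0.95 in control replicate 2, -0.43 in w5 replicate 1 and 0.35 in w5 replicate 2. Medtr7g016800 and Medtr5g020760 shared the signs of HID with w5 at a smaller size, with -0.05 and -0.07 in replicate 1 and 0.16 and 0.12 in replicate 2. Of the other 9 members, all were above the mean in control replicate 1, and Medtr5g020760 was the only one above it in control replicate 2, by 0.06.

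**Figure D3:**
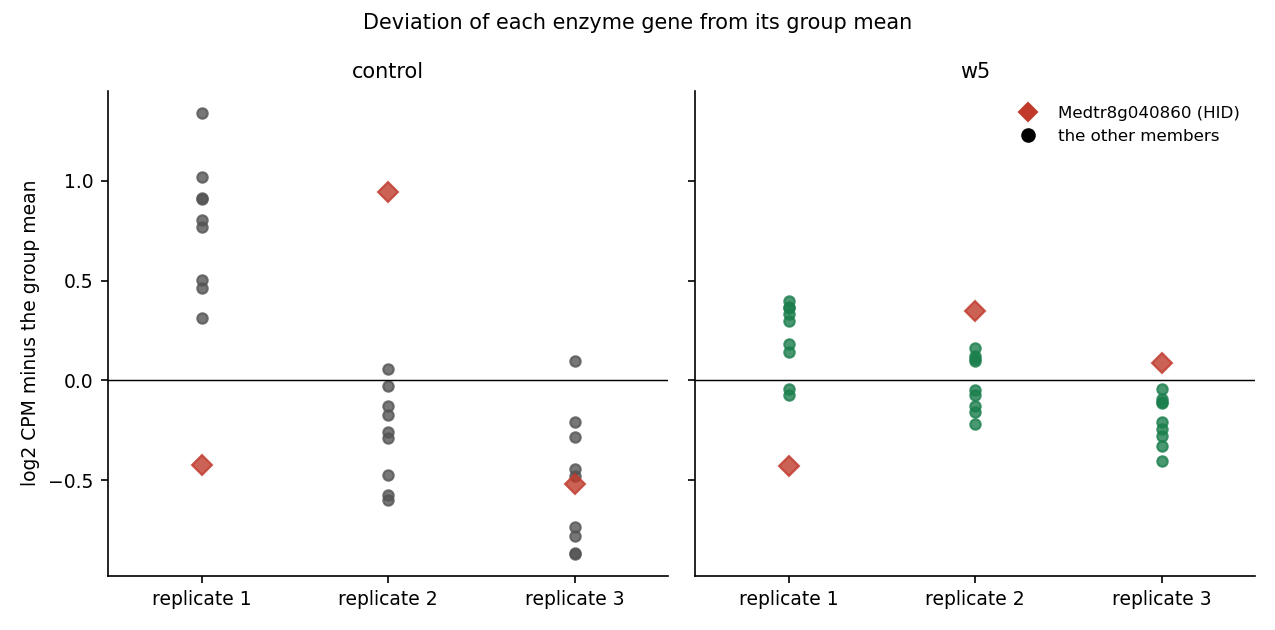
Log2 CPM of each enzyme gene minus the mean of its group, by library, with controls at the left and w5 libraries at the right. The diamonds mark HID (Medtr8g040860), which lies at -0.42 in control replicate 1 where the other 9 genes lie between 0.31 and 1.34.

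The branches were compared by the summed FPKM of their members. The 3 chalcone synthases summed to 43.1 ± 17.2 FPKM without w5 and 109 ± 12.1 FPKM with w5 (SD, n = 3 in each group), 2.52 times as much. The flavone synthase, the flavonol synthase and the DFR summed to 216 ± 51.9 and 465 ± 123 FPKM, 2.15 times as much, and most of this was the DFR. The 4 isoflavonoid genes summed to 74.8 ± 32.1 and 160 ± 16.4 FPKM, 2.14 times as much. Each branch was higher in all 3 w5 libraries than in all 3 controls.

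Grouped by listed name, the mean proportions between branches differed by less than the SD of the controls. The log2 ratio of the isoflavonoid to the chalcone synthase sum was 0.79, 1.36 and 0.13 in the controls and 0.45, 0.71 and 0.49 with w5. That of the flavone, flavonol and DFR sum to the chalcone synthase sum was 2.13, 2.83 and 2.08 in the controls and 2.28, 2.07 and 1.82 with w5. The isoflavonoid sum against the flavone, flavonol and DFR sum had -1.33, -1.48 and -1.95 without w5 and -1.83, -1.37 and -1.33 with w5. In all of these ratios the groups overlapped, and the mean differences were -0.21, -0.29 and 0.08. The differences in the ratios to the chalcone synthase sum were larger than the SD of the w5 libraries (0.14 and 0.23).

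When Medtr4g088160 and Medtr7g074710 were counted as isoflavonoid genes, as their enzyme numbers have it, the other branch consisted of the flavonol synthase alone. The log2 ratio of the isoflavonoid sum to that gene was 7.42, 7.87 and 7.61 without w5 and 7.22, 7.33 and 7.08 with w5, a mean difference of -0.42. All of these ratios were taken after adding 1 FPKM to each sum, and the flavonol synthase had only 1.22, 0.199 and 0.101 FPKM in the controls. The constant therefore set this difference, which was -2.31 with none added, -1.79 with 0.1 FPKM and 0.53 with 5 FPKM, and no direction is read from it. In this grouping the isoflavonoid sum was 379, 279 and 214 FPKM without w5 and 762, 609 and 494 FPKM with w5. Its log2 ratio to the chalcone synthase sum was 2.60, 3.27 and 2.40 without w5 and 2.63, 2.54 and 2.30 with w5. In that ratio the groups overlapped, with a mean difference of -0.27.

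**Figure D4:**
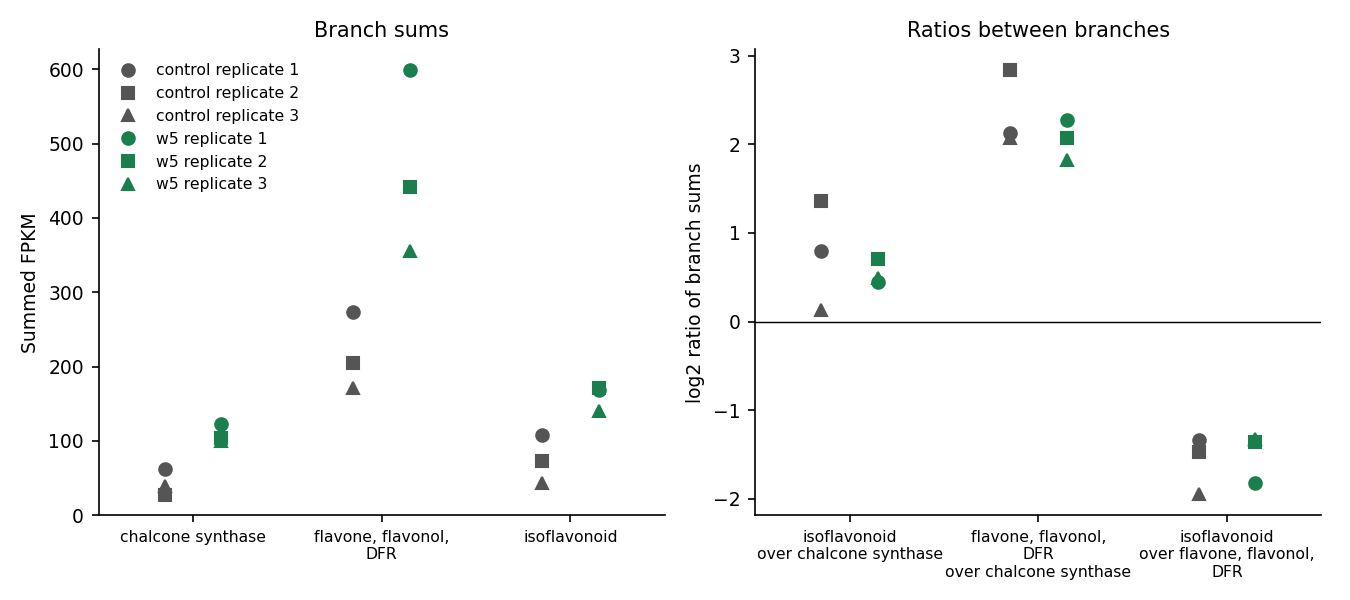
Summed FPKM of the members of each branch (left) and log2 ratios between these sums within a library (right), one marker per library. The sums of the 3 w5 libraries lie above those of the 3 controls in each branch, while the ratios of both groups overlap.

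The listed flavone synthase was also set against the isoflavone synthase within each library, as a description of these members. By its enzyme number the first gene carries the isoflavone synthase reaction too, so no shift between branches is read from this ratio. Whether both genes share reads was not tested. Medtr4g088160 had 0.566, 0.560 and 0.769 times the FPKM of Medtr4g088195 in the controls and 1.03, 0.956 and 0.868 times with w5. Every w5 library was above every control in this ratio, but the nearest libraries, at 0.769 and 0.868, lay closer together than the SD of the controls (0.119). The ratios of HID, of both isoflavone reductases and of the DFR to Medtr4g088195 overlapped between the groups.

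Other genes of the pathway were sought by the words of their annotation. Only the supplementary annotation names enzymes. Its genes were selected by the study on these same libraries, and for this reason a count of directions among them carries no independent weight. It held 26 genes of the pathway, 17 of them not members, of which 12 could be tested. At an unadjusted p under 0.05 and a log2 fold change past 1 in edgeR's test, 10 of these were higher and 1 was lower, with a median of 1.16. Without w5 replicate 1 the numbers were 6 and 0, and without w5 replicate 3 they were 10 and 0.

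The 12 annotated chalcone synthases had 10 that were tested, all higher, with log2 fold changes between 1.01 and 2.08. The 3 members held between 14.9% and 19.4% of the summed FPKM of these 12 genes. Chalcone synthases outside the study's selection are not in that sum, so the members' share of the whole family can only be smaller. Among the others with the lowest p were Medtr1g098140 (log2 fold change 1.20) and Medtr7g016820 (1.80), which lies 2973 bases from Medtr7g016800. Chalcone isomerase, which closes the ring of the chalcone, was represented by Medtr1g115870, whose level was 1.54 ± 0.592 CPM in the controls (SD, n = 3) and 4.40 ± 1.34 CPM in the w5 libraries (SD, n = 3). The flavonol synthase or flavanone hydroxylase Medtr5g055680 had a log2 fold change of 1.03 and the isoflavone methyltransferase Medtr4g088190 of 1.12. Medtr5g065010, with the same description as Medtr5g055680 and the flavonol synthase Medtr5g059140, had too few reads to be tested. It went the other way, with 15, 14 and 7 counts in the controls and 1, 6 and 0 counts with w5. The other untested genes that are not members had higher mean CPM with w5.

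The 1 lower gene of those tested was Medtr1g022445, annotated as a dihydroflavonol reductase, the enzyme that opens the way to anthocyanins and tannins. It had 27.3, 41.6 and 49.0 CPM without w5 and 14.2, 26.7 and 15.6 CPM with w5, a log2 fold change of -1.06 (standard error 0.30). Medtr7g102820, annotated as similar to leucoanthocyanidin dioxygenase of the same route, stood at 0.999 (log2 fold change, standard error 0.38) and did not pass. So the 2 genes with a dihydroflavonol reductase description, Medtr7g074710 and Medtr1g022445, differed in opposite directions.

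Several members have close neighbours of the same pathway, so the 5 genes on each side of each member in the order of gene IDs were examined as well. This order follows the chromosome in 97.5% of 767 neighbouring pairs of annotated genes. There were 75 such flanking genes. Not a single read was counted for 35 of them, and 29 were tested. Of the 25 tested genes with no pathway annotation, 20 had a log2 fold change between -0.5 and 0.5, 1 was higher and 0 were lower at an unadjusted p under 0.05 and a log2 fold change past 1, where 2.03% of all genes were higher and 2.73% lower. At an adjusted p under 0.05, 0 of them passed in edgeR's test. The median over the 25 was -0.04. Pathway annotation exists only for genes that the study selected on these libraries, so an unchanged neighbour could not carry it. The difference between annotated and other neighbours was therefore fixed by that selection, and nothing is read from it. The higher one was Medtr4g088225 (log2 fold change 1.04, adjusted p = 0.265 from edgeR), which did not pass without control replicate 2 or w5 replicate 1, while without control replicate 1 the count was 3.

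On chromosome 4, Medtr4g088160 and Medtr4g088195 enclose 3 further IDs. Medtr4g088180 had no count in any library. The methyltransferase Medtr4g088190 had 251, 141 and 78.9 CPM without w5 and 411, 313 and 304 CPM with w5. Medtr4g088170, which is not annotated in the sources used here, had 224, 149 and 70.2 CPM without w5 and 281, 251 and 191 CPM with w5, and its groups overlapped. The fitted difference was 0.71 on the log2 scale with a standard error of 0.37, and edgeR's adjusted p was 0.558. In all 4 expressed genes of this stretch the controls stood in the same order, replicate 1 highest and replicate 3 lowest. The members Medtr7g016720, Medtr5g059140, Medtr7g074710 and Medtr5g020760, on other chromosomes, had this order too. Its share over all genes was not computed, so nothing about the stretch is read from it. Beyond the isoflavone reductases on chromosome 5, Medtr5g020840 had 79.4, 73.0 and 82.2 CPM without w5 and 153, 132 and 138 CPM with w5, without overlap. The fitted difference was 0.85 on the log2 scale with a standard error of 0.14, and edgeR's adjusted p was 0.0721.

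**Figure D5:**
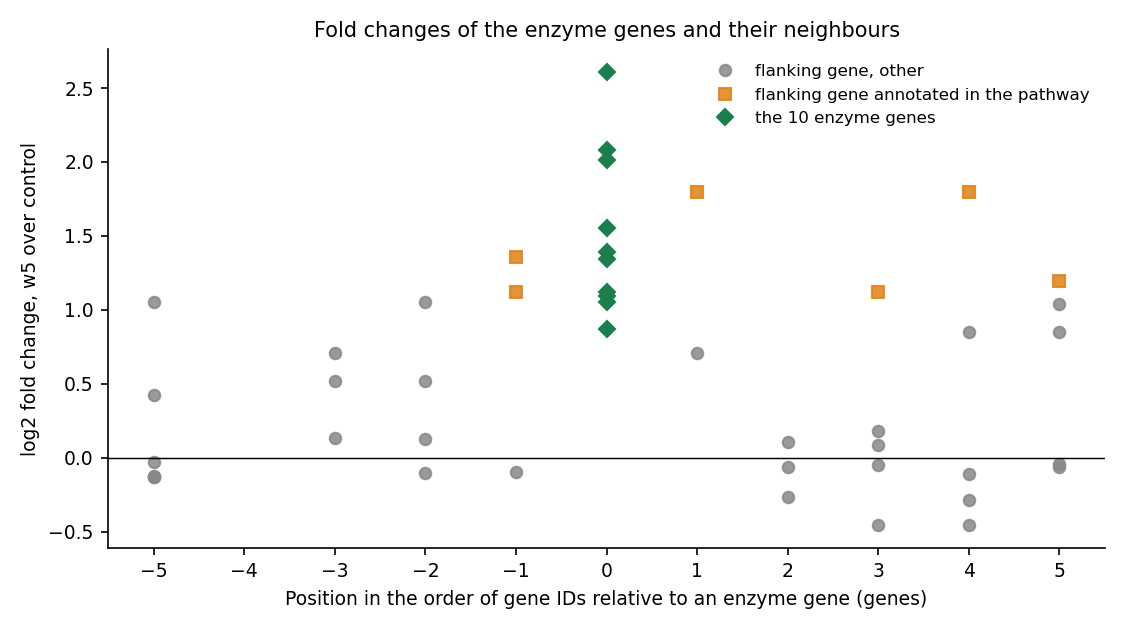
Log2 fold change of the 10 enzyme genes (position 0) and of the tested genes up to 5 places before or after them in the order of gene IDs, with a gene near 2 members drawn at both positions. Squares mark neighbours annotated in the pathway, between 1.12 and 1.80, and the other neighbours have a median of -0.04. Only genes that the study selected on these libraries are annotated, so this difference was fixed by that selection.

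The genes with the most similar course over the 6 libraries, by Pearson's r with the members' mean standardized log2 CPM, were Medtr6g018820, Medtr1g056910, Medtr7g094100, Medtr3g110450 and Medtr6g008680, with r between 0.986 and 0.995. Each member is part of this mean and was chosen on the contrast between the groups, so its own r is partly built in. The members' own r ran from 0.63 (HID) to 0.99 (Medtr7g016720). These values describe 6 libraries in 2 groups and are given without a test. Of the most similar genes only Medtr1g056910 is annotated, as a ubiquitin ligase similar to PUB23. It had 10.8, 4.77 and 4.61 CPM without w5 and 23.2, 21.1 and 17.4 CPM with w5. Medtr6g018820 lay between 0.577 and 1.99 CPM and Medtr6g008680 between 0.702 and 2.60 CPM, so their r rests on few reads.

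Genes typical of green tissue moved with the groups in the opposite direction. Of 41 genes annotated for the photosystems or light harvesting, 39 were tested and all 39 were lower with w5 at an unadjusted p under 0.05 and a log2 fold change under -1 in edgeR's test, again among genes selected by the study. Their summed level lay between 5089 and 9438 CPM in the controls and between 2553 and 3354 CPM with w5, and none of the 41 was at 0 in any library. In the controls this sum was 8487, 9438 and 5089 CPM, whereas the members' sum was 683, 451 and 378 CPM, so both were lowest in control replicate 3. The part of these differences in the levels of the enzyme genes was not tested.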

How the data were processed

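The deposited table holds, for each gene and library, the authors' unnormalized read count as a whole number. The deposited FPKM were made by the authors from the count, the gene length and the library total, which was checked in 131099 values above 0. Bowtie 0.12.2 and a mouse build, mm8, stand in the submitters' processing notes, whereas the study's methods refer to the genome of *M. truncatula*. How reads were assigned to genes, with or without strand, and under which annotation release is not given in the sources used here.

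Counts were filtered by edgeR's filterByExpr, scaled by TMM and tested in edgeR 4.0.16 (R 4.3.3) with robust quasi-likelihood fits, the condition as the only term and Benjamini-Hochberg adjustment over 16905 genes. Log2 CPM used a prior count of 2. Branch ratios used FPKM sums plus 1. Alternatives were DESeq2 1.42.0, RLE or upper-quartile factors, no filter, a filter at 1 CPM in 3 libraries, each library left out and a block for the replicate number. For branches they were CPM, pseudocounts of 0.1 and 5, and grouping by enzyme number, to which single moved genes and other pseudocounts were added after seeing the data. The neighbours were added after the table had been opened. The members and lists were chosen with earlier results of these data known. Annotation words came from the supplementary annotation, as the reference table (MtrunA17r5.0) matched 755 of its 790 genes, 9 members among them, and gives no enzyme names. The genes named are the members, the 2 other genes with the lowest p in each list, the 5 most similar genes, and neighbours. Medtr4g088170, Medtr4g088225, Medtr5g020840 and Medtr5g065010 were chosen after their values were seen. Lists for endodermis, nodule cells, flavonoid hydroxylases, isoflavone synthases, isoflavone hydroxylases, vestitone reductase and pterocarpan enzymes matched no description in the supplementary annotation. The planned sequence comparisons were not made. The procedure was tested on simulated data. Libraries of a group differed by more than sampling noise (chi-square of 9.29 to 29.4 per gene), and all were kept. Replicate numbers were not taken as pairs.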

Additional observations from a re-analysis of the deposited data

How the results depend on the processing

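No member changed direction under any of the 12 alternatives of the fit. Of 120 member values, 116 moved by less than the spread between replicates, and the 4 others were Medtr7g016720, Medtr7g016800 and Medtr5g059140 without control replicate 1 and HID without control replicate 2. The median over the 10 members lay between 1.20 and 1.62 when each library was left out, and the number past an unadjusted p under 0.05 and a log2 fold change over 1 between 7 (without control replicate 3) and 10 (without control replicate 1). Over all genes, the number higher by that rule was 344, 519 with no filter and between 356 and 492 with a library left out. The number lower was 462, 651 with no filter and between 368 and 602 with a library left out. At an adjusted p under 0.05, edgeR called 3 genes, 195 with no filter, 176 with the replicate block and between 1 and 103 with a library left out, and DESeq2 called 540. Which genes make up these counts was not compared, and the cause was not tested. The block raised the members past the first rule from 9 to 10, and those at an adjusted p under 0.05 in edgeR from 0 to 4. Deviations of same-numbered libraries had correlations of 0.23, -0.05 and -0.03 over genes, and control replicate 2 with w5 replicate 3 had 0.24. The numbers were therefore not taken as pairs, although these values cannot exclude pairing.

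Of the pathway genes that are not members, between 6 and 14 were higher and between 0 and 2 lower with a library left out. The lower number was 2 with DESeq2, with no filter and with the filter at 1 CPM, which test more of these genes. Of the neighbours with no pathway annotation, between 0 and 3 were higher with a library left out, and 0 with 3 genes on each side. Grouping by enzyme number turned the mean difference of the flavone, flavonol and DFR sum over the chalcone synthase sum from -0.29 to 0.15 and that of the isoflavonoid over the flavone, flavonol and DFR sum from 0.08 to -0.42. In alternatives chosen after seeing the data, moving the DFR alone gave 0.24 and -0.55, and moving Medtr4g088160 alone gave -0.34 and 0.24. With both moved, the differences were 2.02 and -2.31 with no constant added, 1.503 and -1.79 with 0.1 FPKM and -0.72 and 0.53 with 5 FPKM. Without control replicate 2 the isoflavonoid over chalcone synthase difference was 0.09 and not -0.21. Without control replicate 3 or w5 replicate 3 the isoflavonoid over flavone, flavonol and DFR difference was -0.10 or -0.01. Depth limits the flavonol synthase most, with 1 count in control replicate 3.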
